A study of Mus musculus with 24 samples.

Results

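The genes *Impact*, *Zdbf2*, *Gpr1*, *Adam23* and *Cdh15* lie at 3 imprinted loci of the mouse. They were taken by gene name from the deposited gene expression table, in which each of the 5 names is found once among 34745 genes. RNA-seq had been performed with 129/DBA hybrid whole embryos at E13.5, with 6 M-Z+ and 6 M-Z- embryos and 1 library per embryo. The embryos came from *Zfp57*-/- mothers of the 129 strain mated to *Zfp57*+/- fathers mainly of the DBA/2J background. Maternal *Zfp57* is missing from M-Z+ embryos, which keep a wild-type paternal allele, and M-Z- embryos have neither. Both groups therefore lack the maternal product, and they are compared by zygotic genotype. The paternal mutant allele was bred from the 129 strain into DBA/2J mice, so sequence linked to it cannot be told apart from the allele. Litter and sex of these embryos are not given in the labels, and M+Z+ embryos and bisulfite libraries were not analysed here. The M-Z+ libraries held 12347383 to 19216288 gene counts each, and the M-Z- libraries 12005145 to 14617373. The p-values measure the spread between these embryos.

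ZFP57 is a zinc finger protein that binds methylated DNA at imprinting control regions (ICRs) and maintains the methylation that marks the parent of origin. At the loci described here the germline mark is on the maternal copy, and *Impact* and *Zdbf2* are known to be transcribed from the paternal copy. The paper reports that methylation at the *Impact* and *Cdh15* ICRs was already partly lost in female M-Z+ embryos. It also reports transcription from both copies, to varying degrees, for *Zdbf2* in M-Z+ embryos of both sexes and for *Impact* in males. The M-Z+ group is therefore not an unaffected reference for these loci. Gene counts add both alleles together, so they measure total transcript and not its parental origin. A whole embryo is a mixture of tissues, and fewer cells of a type cannot be told apart from less RNA per cell.

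*Zfp57* itself (chr17:37001163-37010635) was measured first. Its lowest, median and highest levels were 19.1, 23.7 and 40.8 normalised counts (CPM, counts scaled to a common library size) in M-Z+ embryos and 17.8, 26.5 and 27.8 CPM in M-Z- embryos. The groups overlapped, with a log2 fold change of −0.15 (SE 0.18, adjusted p = 0.828, edgeR quasi-likelihood test with Benjamini–Hochberg adjustment). A gene count does not show which exons the reads came from, so this row does not check the genotype labels.

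Libraries were compared before the members. The length slope of a library, which is the change in log2 CPM with log2 of gene length and measures how far long genes are favoured, was 0.667 to 0.677 in 3 libraries, M-Z+ replicate 6 and M-Z- replicates 5 and 6. It was 0.444 to 0.574 in the other 9. Mean slopes were 0.544 ± 0.0771 (SD, n = 6) in M-Z+ and 0.595 ± 0.0606 (SD, n = 6) in M-Z- embryos, which did not differ beyond their spread (exact two-sided permutation p = 0.193). The same 3 libraries had the lowest summed liver markers, at 3716, 3617 and 2813 CPM beside 4215 CPM or more in the other 9. They also had the highest summed heart markers, at 123, 152 and 172 CPM beside 115 CPM or less. The part of these tissues in the results was not tested. Fold changes and ratios of the 5 genes and counts of calls are given with and without these 3 libraries, a choice made after the data were seen.

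None of the 5 genes passed the threshold, an adjusted p below 0.05 with a log2 fold change beyond 0.5. A total of 4 had enough counts to be tested, and 0 of these 4 were called by edgeR, where 13 of all 16026 tested genes were called (0.0811%). DESeq2 also called 0 of them, with 39 of 23825 genes called (0.164%). At an unadjusted p below 0.05, 2 of the 4 passed (*Impact* and *Zdbf2*), as did 6.7% of all tested genes. With the fold limit added, 1 passed (*Zdbf2*), beside 1.54% of all tested genes. In the 9 libraries of lower length slope edgeR called 16 genes in all and again 0 of the 4. The groups of embryos overlapped for each of the 5 genes, and for all but 0.574% of the tested genes.

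**Figure D1:**
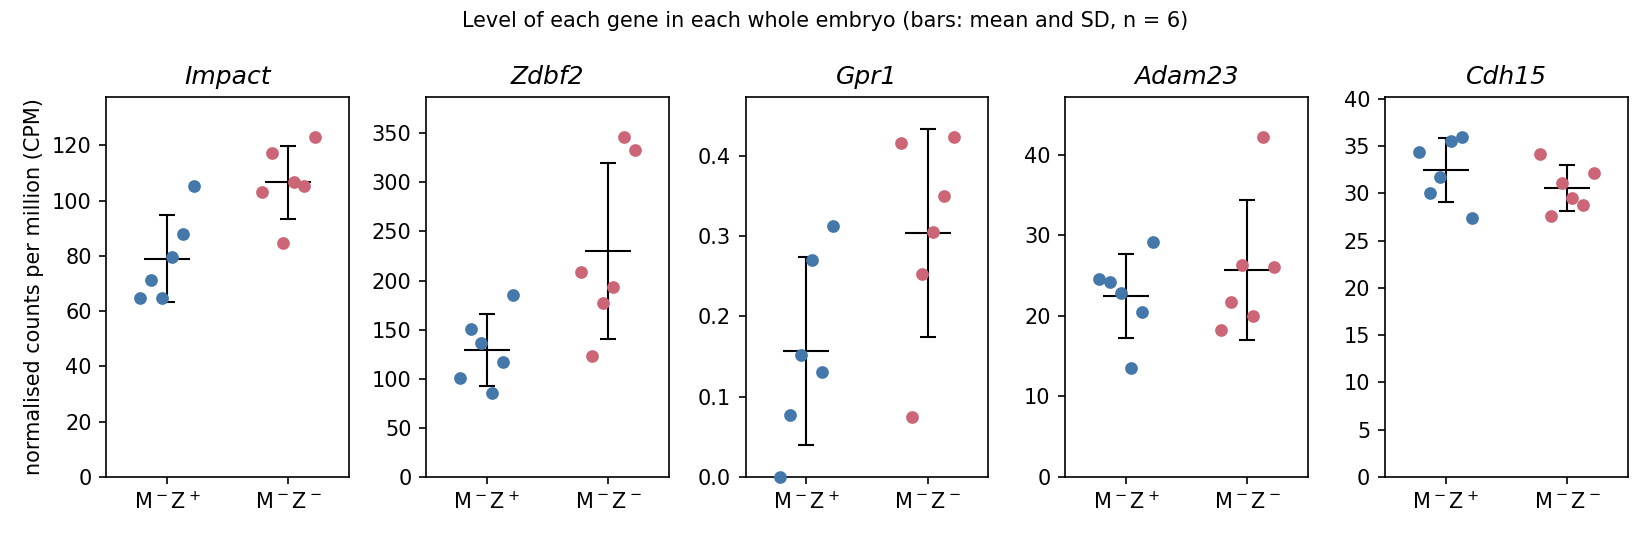
CPM of each gene (vertical axis, starting at 0, with a scale of its own in each panel) in the 6 M-Z+ and 6 M-Z- embryos; each point is 1 embryo and bars are the mean and SD. The groups overlap in every panel, with 4 of 6 M-Z- embryos above every M-Z+ embryo for *Impact* and for *Zdbf2*.

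*Impact* (chr18:12972252-12992948) encodes an inhibitor of the kinase GCN2 that competes for its activator GCN1. Its lowest, median and highest levels were 64.8, 75.5 and 105 CPM in M-Z+ embryos and 84.6, 106 and 123 CPM in M-Z- embryos. A total of 4 of 6 M-Z- embryos lay above every M-Z+ embryo, and 4 of 6 M-Z+ embryos lay below every M-Z- embryo. The highest M-Z+ value was that of replicate 6, and the lowest M-Z- value that of replicate 3. Means were 78.9 ± 15.7 and 107 ± 13.3 CPM (SD, n = 6 each; exact two-sided permutation p = 0.0152 over 924 divisions of the 12 embryos). This corresponds to a log2 fold change of 0.43 (SE 0.13, 95% interval 0.16 to 0.70), with an adjusted p of 0.589 by edgeR. Without the 3 libraries of high length slope it was 0.47 (adjusted p = 0.439).

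*Zdbf2* (chr1:63273265-63314576) encodes a zinc finger protein of the DBF type and is known for its part in postnatal growth and feeding. Its lowest, median and highest levels were 85.2, 127 and 186 CPM in M-Z+ embryos and 123, 201 and 346 CPM in M-Z- embryos. Again 4 of 6 M-Z- embryos lay above every M-Z+ embryo, while M-Z- replicates 2 and 3 lay within their range. The highest values of M-Z- embryos were 346 CPM in replicate 5 and 333 CPM in replicate 6, and that of M-Z+ embryos was 186 CPM in replicate 6, which are the 3 libraries of high length slope. Means were 129 ± 36.3 and 230 ± 89.5 CPM (SD, n = 6 each; exact two-sided permutation p = 0.0238). The log2 fold change was 0.83 (SE 0.25, 95% interval 0.30 to 1.37), with an adjusted p of 0.645 by edgeR. Without those 3 libraries it was 0.57 (adjusted p = 0.596), and with the length slope as a covariate it was 0.50 (adjusted p = 0.297).

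*Gpr1* (chr1:63182691-63214543), a receptor for the adipokine chemerin, was close to undetected. Counts in M-Z+ embryos were 0, 1, 2, 5, 2 and 6 for replicates 1 to 6, and in M-Z- embryos 5, 1, 3, 4, 5 and 6. It did not pass the filter on low counts. Summed over embryos there were 16 and 24 counts, a ratio of 1.74 after scaling for library size, with an exact 95% interval of 0.886 to 3.50 that covers counting error only. Without the 3 libraries of high length slope the ratio was 1.86. With every gene of at least 1 count kept, its log2 fold change was 0.84 (SE 0.60, adjusted p = 0.711, edgeR), and by DESeq2 it was 0.87 (SE 0.68, adjusted p = 0.9901). No difference was detected at this depth.

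*Adam23* (chr1:63445891-63596276) encodes a membrane protein of the ADAM family that binds LGI proteins on neurons. Its lowest, median and highest levels were 13.5, 23.5 and 29.2 CPM in M-Z+ embryos and 18.2, 23.9 and 42.2 CPM in M-Z- embryos. Apart from M-Z- replicate 5, at 42.2 CPM, they lay within the range of the M-Z+ group, and the log2 fold change was 0.20 (SE 0.21, 95% interval −0.25 to 0.65; adjusted p = 0.801, edgeR). Its value was −0.0074 without M-Z- replicate 5 and −0.044 with the length slope as a covariate, so its direction differed between these settings. It was 0.08 without M-Z+ replicate 4. Without the 3 libraries of high length slope it was 0.024 (adjusted p = 0.971).

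*Cdh15* (chr8:122848374-122867397) encodes M-cadherin, an adhesion molecule of myogenic cells. Its lowest, median and highest levels were 27.4, 33.0 and 35.9 CPM in M-Z+ embryos and 27.6, 30.3 and 34.2 CPM in M-Z- embryos. No M-Z- embryo lay above every M-Z+ embryo. Means were 32.5 ± 3.39 and 30.5 ± 2.40 CPM (SD, n = 6 each; exact two-sided permutation p = 0.279), and the coefficient of variation of 10.4% in M-Z+ embryos was the smallest of the 5 genes. The log2 fold change was −0.09 (SE 0.09, 95% interval −0.27 to 0.10; adjusted p = 0.788, edgeR), and −0.14 (adjusted p = 0.693) without the 3 libraries of high length slope. It was also −0.14 without M-Z+ replicate 6 alone, and −0.024 with the length slope as a covariate.

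Levels of different genes were compared per length, as TPM, which divides counts by gene length and scales each library to the same sum. *Impact* had the highest level, with 80.9 ± 19.2 TPM in M-Z+ and 112 ± 15.9 TPM in M-Z- embryos (SD, n = 6 each). *Cdh15* followed with 39.8 ± 2.16 and 38.5 ± 3.47 TPM, and *Zdbf2* with 18.3 ± 6.17 and 33.3 ± 14.0 TPM. In M-Z- embryos the ranges of *Cdh15* (34.2 to 42.8 TPM) and *Zdbf2* (17.3 to 51.3 TPM) overlapped, so these neighbours in the order were not separated there. In M-Z+ embryos they were, with *Zdbf2* at 28.2 TPM or less and *Cdh15* at 36.6 TPM or more. This order rests on the lengths implied by the deposited FPKM, 25.1 kb for *Zdbf2* and 2.84 kb for *Cdh15*. Such lengths may differ from those of the transcripts present. In CPM, which is not divided by length, *Zdbf2* was the higher, with means of 129 and 32.5 CPM in M-Z+ embryos. *Adam23* stood at 3.80 ± 1.06 and 4.44 ± 1.62 TPM, and *Gpr1* at 0.217 ± 0.166 and 0.429 ± 0.190 TPM.

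The slope is computed from how long genes stand against short ones, so long genes tend to go with it by its definition, and a p against an r of 0 is not read as particular to *Zdbf2* or *Adam23*. Among 3000 tested genes with a length of at least 10 kb, a limit set after the data were seen, the median r with the slope was 0.62, and r was at least that of *Zdbf2* in 26.7% and at least that of *Adam23* in 32.2% of them. For *Zdbf2* Pearson's r over the 12 embryos was 0.84 (permutation p = 0.00063, adjusted p = 0.00945 over 15 relations) and Spearman's rho was 0.77 (permutation p = 0.00466, adjusted p = 0.0699). Without the 2 libraries farthest from the median slope r was 0.87. Within the 6 M-Z+ embryos r was 0.95 (exact permutation p = 0.00278, adjusted p = 0.0417) and within the 6 M-Z- embryos it was 0.83 (exact permutation p = 0.0597, adjusted p = 0.224). The order of the 6 M-Z+ embryos by *Zdbf2* was the order of their slopes.

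*Adam23* had r = 0.79 over the 12 embryos (permutation p = 0.00221, adjusted p = 0.0166) and rho = 0.61 (permutation p = 0.0393, adjusted p = 0.118), and r = 0.87 without the 2 farthest libraries. *Cdh15* went the other way, with r = −0.63 (permutation p = 0.0289, adjusted p = 0.107) and rho = −0.66 (permutation p = 0.0216, adjusted p = 0.118), and r = −0.69 without the 2 farthest libraries. Within M-Z+ embryos its r was −0.91 (exact permutation p = 0.00694, adjusted p = 0.0521) and within M-Z- embryos −0.01 (exact permutation p = 0.989, adjusted p = 0.989). *Impact* had r = 0.59 (permutation p = 0.0427, adjusted p = 0.107) and rho = 0.64 (permutation p = 0.0303, adjusted p = 0.118), and r was 0.42 without the 2 farthest libraries. Of the 15 relations 2 had an adjusted p below 0.05 by r, those of the long genes *Zdbf2* and *Adam23* with the slope, and 0 by rho. The gene models of *Zdbf2* and *Adam23* are long, at 25.1 and 20.9 kb, and those of *Impact* and *Cdh15* are 3.43 and 2.84 kb. Over all 16026 tested genes the quartiles of r with the slope were −0.58 and 0.54, beside −0.63 for *Cdh15* and 0.59 for *Impact*. The part of the slope in the group differences was not tested beyond the covariate.

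**Figure D2:**
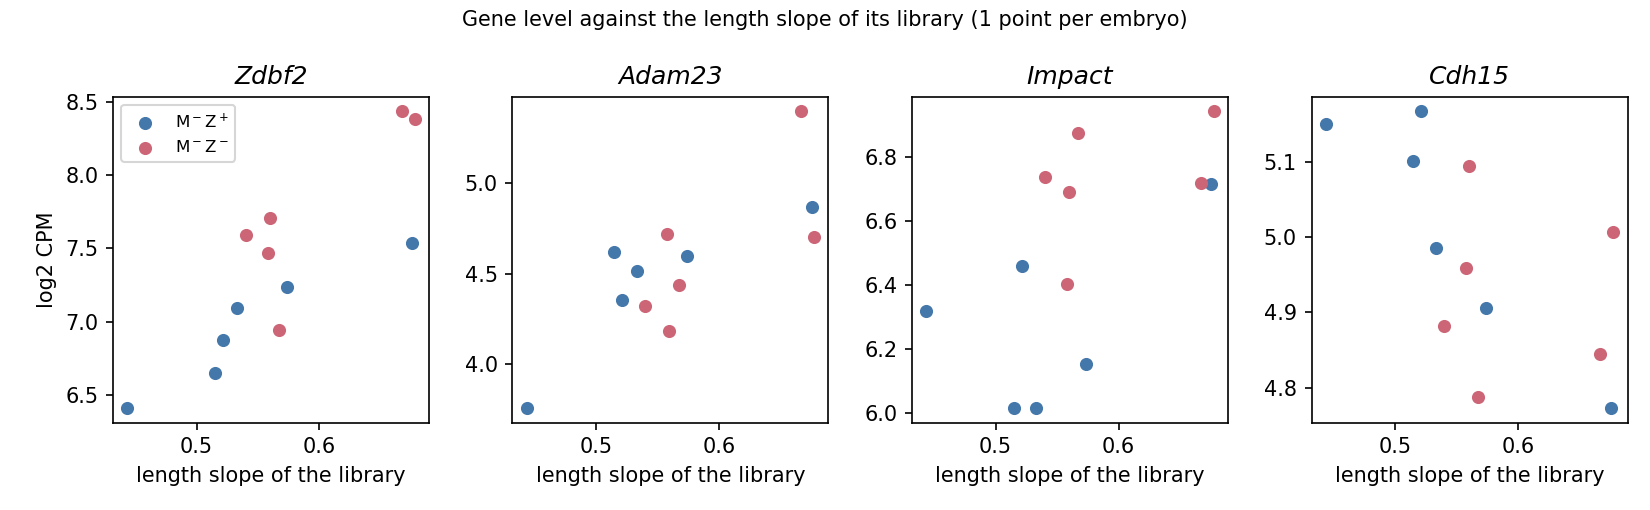
Log2 CPM of 4 genes (vertical axis) against the length slope of the library (horizontal axis), with 1 point per embryo, coloured by group. *Zdbf2* is higher with the slope (r = 0.84 over 12 embryos), and the 3 libraries at 0.667 or more hold its highest values in each group.

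Markers of skeletal muscle, where *Cdh15* is known to be expressed, and of neurons were summed in each embryo. The 21 muscle markers in the table summed to 1051 ± 68.9 CPM (M-Z+) and 1119 ± 97.2 CPM (M-Z-; SD, n = 6 each; exact permutation p = 0.188), and *Myh3* was the most abundant. None of the 20 tested muscle markers was called by edgeR or DESeq2, beside 0.0811% and 0.164% of all tested genes, and 2 had an unadjusted p below 0.05, beside 6.7% of all tested genes. The largest log2 fold changes were those of *Ckm* (0.48, SE 0.45) and *Myf5* (0.38, SE 0.17), and the smallest those of *Tnni1* (−0.26, SE 0.15) and *Pax3* (−0.21, SE 0.16). *Cdh15* had r = 0.15 with the muscle sum over 12 embryos (permutation p = 0.645, adjusted p = 0.807; rho = 0.34, permutation p = 0.286, adjusted p = 0.537), and 0.38 without the 2 libraries farthest from the median sum, M-Z- replicates 5 and 6. Within M-Z+ embryos it was 0.18 (exact permutation p = 0.732) and within M-Z- embryos 0.49 (exact permutation p = 0.306).

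The 12 neuron markers summed to 2726 ± 245 CPM (M-Z+) and 2462 ± 152 CPM (M-Z-; SD, n = 6 each; exact permutation p = 0.0519), with *Tubb3*, which also lies within 1 Mb of *Cdh15*, the most abundant. A total of 10 had a log2 fold change below 0 and 5 an unadjusted p below 0.05, and none was called by edgeR or DESeq2, beside the 6.7% of all tested genes with such a p. For 2 of the 12, *Nefl* and *Stmn2* (−0.21, SE 0.06), the groups did not overlap, beside 0.574% of all tested genes. The smallest values were those of *Map2* (−0.31, SE 0.26) and *Nefl* (−0.24, SE 0.06), and the largest those of *Dcx* (0.10, SE 0.16) and *Syt1* (0.06, SE 0.09). Over 12 embryos *Zdbf2* had r = 0.0021 with the neuron sum (permutation p = 0.995, adjusted p = 0.995; rho = −0.10, permutation p = 0.767, adjusted p = 0.822), and 0.13 without the 2 libraries farthest from the median sum, M-Z+ replicates 5 and 6. Within groups r was above 0, at 0.54 in M-Z+ (exact permutation p = 0.261, adjusted p = 0.631) and 0.82 in M-Z- embryos (exact permutation p = 0.05, adjusted p = 0.224). *Impact* likewise had r = −0.02 over 12 embryos (permutation p = 0.943, adjusted p = 0.995; rho = −0.17, permutation p = 0.587, adjusted p = 0.755) and −0.21 without the same 2 libraries. Its r was 0.74 within M-Z+ (exact permutation p = 0.0972, adjusted p = 0.365) and 0.60 within M-Z- embryos (exact permutation p = 0.208, adjusted p = 0.446). The r of *Zdbf2* with the muscle sum was 0.64 (permutation p = 0.0263, adjusted p = 0.107; rho = 0.41, permutation p = 0.184, adjusted p = 0.395), which was 0.16 without M-Z- replicates 5 and 6 and so rests on those. Within M-Z+ embryos it was −0.17 (exact permutation p = 0.747, adjusted p = 0.801) and within M-Z- embryos 0.91 (exact permutation p = 0.00833, adjusted p = 0.125). *Gpr1*, at 0 to 6 counts per embryo, had r = 0.60 with the muscle sum (permutation p = 0.0368, adjusted p = 0.107; rho = 0.62, permutation p = 0.0375, adjusted p = 0.118), and 0.45 when the same 2 libraries were left out. Its r was 0.27 within M-Z+ (exact permutation p = 0.557, adjusted p = 0.759) and 0.73 within M-Z- embryos (exact permutation p = 0.0403, adjusted p = 0.224). *Adam23* had r = 0.29 with the neuron sum (permutation p = 0.358, adjusted p = 0.671; rho = 0.29, permutation p = 0.366, adjusted p = 0.611), and 0.36 when M-Z+ replicates 5 and 6 were left out. Its r was 0.53 within M-Z+ (exact permutation p = 0.294, adjusted p = 0.631) and 0.61 within M-Z- embryos (exact permutation p = 0.2, adjusted p = 0.446). The remaining relations, of *Gpr1* with the slope and the neuron sum, *Cdh15* with the neuron sum, and *Impact* and *Adam23* with the muscle sum, had r from −0.18 to 0.42 and adjusted p of 0.377 or more.

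Ratios within each embryo compare members directly, free of library scaling. A family of 15 log2 ratios was tested, each with an exact two-sided permutation test of 6 against 6 embryos. The ratio of *Zdbf2* to *Adam23*, its neighbour on the chromosome, was 2.51 ± 0.24 in M-Z+ and 3.12 ± 0.45 in M-Z- embryos (SD, n = 6 each), a difference of 0.61 (SE 0.21, exact permutation p = 0.0195, adjusted p = 0.0649). A total of 5 of 6 M-Z- embryos lay above every M-Z+ embryo. *Impact* over *Cdh15* differed by 0.53 (SE 0.18, exact permutation p = 0.0195, adjusted p = 0.0649) and *Zdbf2* over *Cdh15* by 0.87 (SE 0.32, exact permutation p = 0.0260, adjusted p = 0.0649). *Zdbf2* over *Impact* differed by 0.34 (SE 0.28, exact permutation p = 0.249, adjusted p = 0.333). None of these 4 passed after adjustment. The last moved to 0.22 when M-Z+ replicate 4 was left out, to 0.20 for M-Z- replicate 5 and to 0.53 for M-Z- replicate 2. Over the 9 libraries of lower length slope the 4 differences were 0.53, 0.61, 0.71 and 0.092 in this order, with adjusted p of 0.159, 0.0595, 0.119 and 0.754 (exact permutation tests). Fewer embryos raise the smallest p that an exact test can give, so these p-values do not show that a difference is absent. Without M-Z+ replicate 6 the adjusted p was 0.0162 for *Impact* over *Cdh15* and 0.0260 for *Zdbf2* over *Cdh15*, and without M-Z- replicate 2 it was 0.0162 for *Zdbf2* over *Adam23*. With any other single embryo left out none of these 3 ratios passed, and the adjusted p ranged up to 0.121, 0.130 and 0.121 in the same order (exact permutation tests).

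The ratios with *Gpr1* rest on its few counts. *Zdbf2* over *Gpr1* differed by −0.21 (SE 0.48, exact permutation p = 0.684, adjusted p = 0.733) and *Gpr1* over *Adam23* by 0.82 (SE 0.62, exact permutation p = 0.221, adjusted p = 0.331). The first turned to 0.12 without M-Z+ replicate 1 and to 0.14 at a prior count of 2, and was −0.50 without M-Z+ replicate 4. The second was 0.39 and 0.47 under the first 2 of these settings and was 1.14 under the last. Over the 9 libraries of lower length slope they were −0.43 and 0.95.

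The genes next to each locus were measured in the same fit. A total of 60 tested genes start within 1 Mb of a member, and 0 were called by edgeR, beside 0.0811% of all tested genes. DESeq2 called 0 as well, and 5 of the 60 had an unadjusted p below 0.05, beside 6.7% of all tested genes. The groups did not overlap for 1 of the 60, *Lama3* near *Impact* (0.33, SE 0.11), beside 0.574% of all tested genes. In the 9 libraries of lower length slope edgeR again called 0 of the neighbours. Around *Zdbf2* all 10 tested neighbours had a log2 fold change above 0, from 0.06 for *Eef1b2* to 0.31 for *Ino80d*, with a median of 0.16 beside −0.01 over all tested genes. None of these 10 had an unadjusted p below 0.05 (edgeR). Some of their rows overlap on the chromosome, so they are not 10 separate observations, and a rise of the region was not tested. *Eef1b2* (0.06, SE 0.16) is the nearest on the left of *Gpr1*, and *Fastkd2* (0.10, SE 0.09) is the nearest on the right of *Adam23*. *Zdbf2* over *Fastkd2* differed by 0.69 between groups (SE 0.29, exact permutation p = 0.0411, adjusted p = 0.0881) and *Zdbf2* over *Eef1b2* by 0.72 (SE 0.44, exact permutation p = 0.147, adjusted p = 0.245). These were 0.55 and 0.42 over the 9 libraries of lower length slope.

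*Impact* had 9 tested neighbours, with a median log2 fold change of 0.01. The nearest were *Osbpl1a*, 30.4 kb to the left (0.13, SE 0.07), and *Zfp521*, 694 kb to the right (0.05, SE 0.06). *Impact* over *Zfp521* differed by 0.40 (SE 0.13, exact permutation p = 0.0108, adjusted p = 0.0649), with 4 of 6 M-Z- embryos above every M-Z+ embryo. *Impact* over *Osbpl1a* differed by 0.32 (SE 0.11, exact permutation p = 0.0216, adjusted p = 0.0649). Of the 12 embryos left out singly, each passed only without M-Z+ replicate 6 (adjusted p = 0.0162), and adjusted p ranged up to 0.121 without the others (exact permutation tests). These were 0.42 and 0.38 over the 9 libraries of lower length slope, with adjusted p of 0.0794 and 0.0893 (exact permutation tests). The smallest p possible is again larger with these fewer embryos. *Cdh15* had 41 tested neighbours, with a median of −0.07 and values from −0.37 for *Dbndd1* to 0.31 for *Gm22*. Its nearest were *Acsf3*, 30.5 kb to the left (−0.14, SE 0.10), and *Ankrd11*, 15.9 kb to the right (0.14, SE 0.14). *Cdh15* over *Acsf3* differed by 0.06 (SE 0.08, exact permutation p = 0.509, adjusted p = 0.587) and *Cdh15* over *Ankrd11* by −0.24 (SE 0.20, exact permutation p = 0.266, adjusted p = 0.333). Over the 9 libraries of lower length slope they were −0.070 and −0.26. With single embryos left out the first was lowest for M-Z- replicate 5 (0.0098) and highest for M-Z- replicate 2 (0.09), and the second was lowest for M-Z+ replicate 6 (−0.39) and highest for M-Z+ replicate 4 (−0.12).

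**Figure D3:**
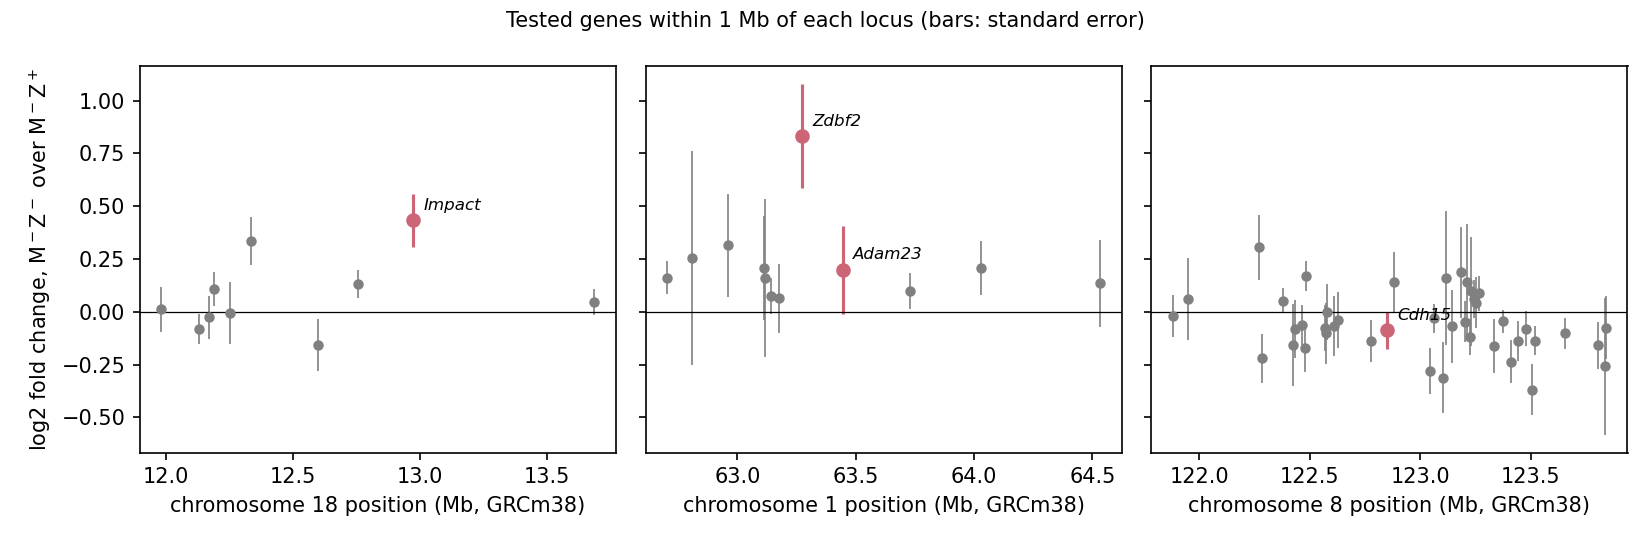
Log2 fold change of M-Z- over M-Z+ embryos (vertical axis) for the tested genes within 1 Mb of each locus, at their start on the chromosome (horizontal axis, Mb); bars are standard errors, members are in red and neighbours in grey. *Zdbf2* (0.83) and *Impact* (0.43) have the highest point of their panels, and *Cdh15* (−0.09) lies among its neighbours.

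Other genes with a maternally methylated ICR served as a comparison. They are 9 genes known to be transcribed from the paternal copy, chosen with earlier results known, of which 5 were called higher in M-Z- embryos: *Plagl1* (1.27, SE 0.12), *Peg3* (1.21, SE 0.18), *Nap1l5* (0.94, SE 0.09), *Inpp5f* (0.78, SE 0.10) and *Mest* (0.67, SE 0.11). The smallest log2 fold changes were those of *Snrpn* (0.14, SE 0.15) and *Peg10* (0.23, SE 0.10), and the median was 0.67. The paper reports methylation as already partly lost at the *Snrpn* ICR in M-Z+ embryos. At the *Peg10* ICR it reports methylation as mostly retained in M-Z- embryos. The 9 genes are thus not alike in this respect, and its part in their values was not tested. Over all tested genes 0.0811% were called. The count of 5 was 3 without M-Z+ replicate 3, M-Z+ replicate 5 or M-Z- replicate 6, and 5 without the 3 libraries of high length slope. Because the 9 genes were chosen with results known and all 9 had a log2 fold change above 0, ratios over their mean log2 CPM are descriptions, and the p-values of these 3, which entered the adjustment over the 15, are not used. *Zdbf2* over this mean differed by 0.07 between groups (SE 0.29), a difference within its spread. It was below 0 without M-Z+ replicate 4 (−0.033), M-Z- replicate 5 (−0.068) or M-Z- replicate 6 (−0.048), and −0.14 without the 3 libraries of high length slope. It was 0.25 without M-Z- replicate 2. *Impact* over the same mean differed by −0.27 (SE 0.13), by −0.17 without M-Z+ replicate 6 and by −0.23 without the 3 libraries of high length slope. *Cdh15* over the same mean differed by −0.80 (SE 0.09) and by −0.84 without the 3 libraries of high length slope, while *Cdh15* by itself differed by less than its spread.

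Partners of the members were described from lists of their pathways. In the GCN2 pathway and the integrated stress response, on which IMPACT acts, 34 genes were tested and none was called or had an unadjusted p below 0.05. The median log2 fold change was −0.02, beside −0.01 over all tested genes, with *Trib3* (0.33, SE 0.20) and *Stc2* (0.32, SE 0.16) highest and *Slc3a2* (−0.20, SE 0.10) and *Eif2b2* (−0.17, SE 0.12) lowest. Among genes of chemerin, the ligand of GPR1, *Rarres2*, which encodes it, had −0.39 (SE 0.21), the receptor *Cmklr1* 0.40 (SE 0.16) and *Ccrl2* −0.40 (SE 0.22). None of these 3 was called. Of 6 genes for LGI proteins and related ADAM proteins none was called, and *Adam11* (−0.35, SE 0.09, adjusted p = 0.536, edgeR) and *Lgi1* (−0.30, SE 0.22) were lowest, with *Lgi2* (0.21, SE 0.13) and *Adam22* (0.06, SE 0.18) highest. Of 24 cadherins and catenins none was called, with a median of 0.07. *Cdh6* (0.60, SE 0.30) and *Cdh7* (0.47, SE 0.32) were highest, and *Cdh19* (−0.18, SE 0.24) and *Cdh22* (−0.08, SE 0.14) lowest. Of the 67 genes of these 4 lists 3 had an unadjusted p below 0.05, beside 6.7% of all tested genes, and DESeq2 called none. Over the 9 libraries of lower length slope edgeR called 0 genes of these 4 lists and 0 of the muscle and neuron markers.

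Genes with the most similar profile over the 12 embryos were named from 13472 others with a mean of at least 50 counts. For *Impact* they were *Socs6* (r = 0.89), *Nr2c2* (r = 0.89) and *Dhx33* (r = 0.86). For *Zdbf2* they were *Nfx1* (r = 0.95), *Alg13* (r = 0.93) and *Fbn2* (r = 0.93). For *Adam23* they were *Edrf1*, *Trappc11* and *Pag1* (each r = 0.90), and for *Cdh15* *Rnf181* (r = 0.91), *Eral1* (r = 0.90) and *2510002D24Rik* (r = 0.88). These values are descriptions over embryos that share library measures such as the length slope.

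*Zdbf2* is annotated with a pair of starts, and the sequence around each is shown because the counted gene begins at only one of them. RefSeq (GRCm38.p6) places the upstream start inside the span of *Gpr1*, whereas the deposited row for *Zdbf2* begins at the downstream start. The row of the noncoding RNA *Platr12*, at chr1:63200313-63207967 which holds the upstream start and lies inside the row of *Gpr1*, had 0 counts in all 12 embryos. How reads of overlapping rows were counted is not stated for this table, and the 0 may depend on it. RefSeq windows of 300 bases around gene starts were found for 4 of the 5 genes. They were searched on both strands for TGCCGC, the hexamer that ZFP57 binds when methylated, which occurs in 11.6% of 32851 such windows. The upstream window (chr1:63200108-63200407, plus strand) holds it 3 times, counting the opposite strand, a count of at least 2 being found in 1.53% of windows. These shares are over all windows and are not matched for CpG, which the hexamer itself contains. The downstream window (chr1:63273019-63273318, plus strand) holds none. Capitals mark the hexamer on either strand.
Upstream *Zdbf2* window: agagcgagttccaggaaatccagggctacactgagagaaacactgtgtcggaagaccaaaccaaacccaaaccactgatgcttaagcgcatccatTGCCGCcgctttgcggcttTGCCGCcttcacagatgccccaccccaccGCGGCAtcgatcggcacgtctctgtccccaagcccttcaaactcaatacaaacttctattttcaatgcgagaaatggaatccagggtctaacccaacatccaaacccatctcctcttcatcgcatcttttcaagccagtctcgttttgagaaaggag
Downstream *Zdbf2* window: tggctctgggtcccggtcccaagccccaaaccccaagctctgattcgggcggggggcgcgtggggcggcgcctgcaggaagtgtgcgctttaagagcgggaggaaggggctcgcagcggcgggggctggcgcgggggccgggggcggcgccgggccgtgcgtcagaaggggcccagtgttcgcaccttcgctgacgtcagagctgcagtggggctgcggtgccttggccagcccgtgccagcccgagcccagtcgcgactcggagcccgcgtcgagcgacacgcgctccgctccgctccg
The upstream window has 15 CpG and the downstream window 38, beside a median of 7 over all windows. The window of *Adam23* holds the hexamer once and has 31 CpG, and the windows of *Gpr1* and *Cdh15* hold none, with 2 and 7 CpG. A match is a description of these letters and no measure of binding. The paper reports methylation at the *Gpr1* ICR as largely retained in M-Z- embryos, and how that ICR lies to these windows was not examined.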

How the data were processed

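RNA-seq counts of 12 embryos were used. The authors deposited raw read counts per gene, together with FPKM values. FPKM deposited by the authors implied 1 length per gene, used here only for the length slope and for TPM. The submitters' processing notes name HISAT2 2.0.4 and mm10 without saying for which step, and the study's methods name featureCounts with strand-specific counting for reads aligned to an earlier build than that of this table. Whether that counting made these values is not stated, so antisense reads may not be told apart. Positions follow GRCm38.

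Tests were run with edgeR 4.0.16 (TMM, glmQLFTest, 16026 genes kept by filterByExpr) and DESeq2 1.42.0 under R 4.3.3, and permutation tests with Python 3.11.15. The standard error is the log2 fold change divided by the square root of F. The fits were tested on simulated counts. Ratios used a prior count of 0.5. Named genes were the members, *Zfp57*, nearest tested neighbours, the 3 most similar genes and some list genes. The list genes were those called, with the 2 largest and 2 smallest log2 fold changes, or most abundant among muscle or neuron markers. *Ino80d*, *Dbndd1*, *Gm22*, *Lama3*, *Stmn2* and *Platr12* were named after their values were seen. Alternatives were other tests, scalings, filters, covariates, thresholds and left-out embryos. The members and lists were chosen with earlier results of these data known.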

Additional observations from a re-analysis of the deposited data

Results flagged for a closer look

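Among 24 groups of 6 values looked at, 1 held a sample far from the others, and chance gives about 1 in 20. *Adam23* in M-Z- replicate 5 had 42.2 CPM, whereas the other M-Z- embryos had 18.2 to 26.3 CPM. This library also has one of the 3 high length slopes, and the part of that slope in the value was not tested.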

How the results depend on the processing

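The log2 fold changes of *Impact* (0.35 to 0.52) and *Cdh15* (−0.14 to −0.02) kept their direction and stayed uncalled under all 22 alternatives, and the *Gpr1* ratio was 1.503 to 2.199 under its 15. *Zdbf2* (0.50 to 0.96) kept its direction, and its value of 0.83 passed only at the unadjusted p, which made 1 member called. *Adam23* turned to −0.044 with the length slope as a covariate and was −0.0074 to 0.28 with each embryo left out (below 0 without M-Z- replicate 5). The 13 calls over all genes became 23 with the length slope, 247 at the unadjusted p and 21 with the replicate number as a block. With DESeq2, which also tested more genes (23825 beside 16026), there were 39. The labels do not say whether same-numbered embryos pair. Correlations of their deviations ranged from 0.04 to 0.63, and 3 of 6 correlated best with their own number. Whether same-numbered embryos share a batch was not tested. The count of 5 in the lists was 3 to 5 with embryos left out (3 without replicate 3 or 5 of M-Z+ or 6 of M-Z-). Leaving out embryos gave differences of log2 ratios of −0.50 to 0.12 for *Zdbf2* over *Gpr1* (above 0 without M-Z+ replicate 1, and 0.14 at a prior count of 2), 0.50 to 0.74 for *Zdbf2* over *Adam23*, 0.72 to 1.03 for *Zdbf2* over *Cdh15*, 0.46 to 0.67 for *Impact* over *Cdh15*, 0.27 to 0.39 for *Impact* over *Osbpl1a*, 0.33 to 0.48 for *Impact* over *Zfp521*, and −0.068 to 0.25 for *Zdbf2* over the other ICR genes (below 0 without replicate 4 of M-Z+ or replicates 5 or 6 of M-Z- singly). Without the 3 libraries of high length slope, added after the data were seen, *Cdh15* over *Acsf3* was −0.070, *Zdbf2* over the other ICR genes −0.14, and *Cdh15* over them −0.84. That last difference was −0.80 with the replicate block and is a description. None of the 15 ratios passed after adjustment with the block. Its lowest p was 0.03125 (exact permutation within pairs, adjusted p = 0.117), the smallest that 6 pairs allow. The block is therefore no test of whether these calls are stable. The cause of the changes between settings was not tested. Depth limits *Gpr1*, with 0 to 6 counts per embryo.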

Other observations

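Other tissues of the embryo were described by marker sums. Liver markers summed to 5371 ± 1348 CPM (M-Z+) and 4643 ± 1324 CPM (M-Z-; SD, n = 6 each; exact permutation p = 0.359), heart markers to 102 ± 15.8 and 116 ± 38.1 CPM (exact permutation p = 0.448), and erythroid markers to 9165 ± 2423 and 9745 ± 1495 CPM (exact permutation p = 0.615). None of these 21 genes was called by edgeR or DESeq2, and 1 had an unadjusted p below 0.05, beside 6.7% of all tested genes. None was called by edgeR without the 3 libraries of high length slope. Of 8 placenta and decidua markers 6 had 0 counts in all libraries, and the highest count of any was 3.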
